A study of Mus musculus with 6 samples.

Results

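The IRAK kinases and the TRAF adaptors carry signals from Toll-like receptors (TLRs) and from receptors of the IL-1 family to NF-kB and the MAP kinases. When such a receptor is engaged, the adaptor MYD88 gathers IRAK4 with IRAK1 or IRAK2, and the complex then engages TRAF6, a ubiquitin ligase that activates the kinase TAK1. IRAK3 and TOLLIP restrain this cascade, PELI1 is a ubiquitin ligase that acts on IRAK complexes, and TRAF3 and TRAF5 also serve receptors of the TNF family, which are prominent on the B and T cells of the spleen.

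Transcripts of 10 such genes were examined in spleen RNA: Irak1, Irak2, Irak3, Irak4, Irak1bp1, Traf3, Traf5, Traf6, Peli1 and Tollip. They were taken as a list of names from the 47729 genes of the deposited count table, and all 10 were found and had enough counts to be tested, among 15330 genes that did. The mice were NOD.B10 (NOD.B10Sn-H2b/J) females, which carry the NOD background with the H2b haplotype and model primary Sjögren's syndrome (pSS), and BL/10 (C57BL/10) females as healthy controls, with 3 spleens sequenced per strain. The labels name no treatment in either strain. The labels give an age of 26 weeks for all NOD.B10 libraries and for BL/10 replicate 1, and 36 weeks for BL/10 replicates 2 and 3. The written design instead describes the controls as matched in age to the NOD.B10 mice, and this conflict could not be resolved. By the labels, strain and age differ together in part and cannot be fully told apart. In the labels of every library, the title and the strain field disagree with the description and with the column of the count table about the strain. The strain in the columns was used, and under the titles every direction given here would be reversed, with the 36-week ages then in NOD.B10.

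The libraries held between 15662712 and 18298451 counted reads. A floor of detection was set at 3 counts, or 0.164 to 0.192 CPM (reads relative to library size), and covers counting error only. Levels are given as CPM scaled by the TMM method, and strains were compared by the quasi-likelihood test of edgeR, with the p-value adjusted over all 15330 genes and BL/10 as the reference. The B cell and red pulp macrophage markers that define spleen were present in every library, with summed levels from 3305 to 5853 CPM and from 3971 to 5182 CPM. The libraries also differed in cell markers. T cell markers were higher in NOD.B10 (13 of 15 genes past the threshold, 1085 to 1425 CPM in sum against 501 to 663 CPM in BL/10). The others, Cd8a and Cd8b1, had log2 fold changes of 0.16 and -0.40 and did not pass. Of all tested genes, 17.3% passed an adjusted p of 0.05 in either direction. Neutrophil markers were lower (11 of 12 genes, 2213 to 2563 CPM against 6228 to 13050 CPM). The remaining gene, Cxcr2, had a positive log2 fold change of 0.58 and did not pass (adjusted p = 0.106 in edgeR). Digestive enzyme genes of the pancreas, which are not spleen genes, summed to 14148, 2169 and 113 CPM in BL/10 replicates 1, 2 and 3 and to at most 31.5 CPM in NOD.B10. Plasma cell markers were higher in NOD.B10 for 6 of 9 genes, while the summed B cell, dendritic cell, erythroid and red pulp macrophage markers of the strains overlapped. For B cells, the overlap rested on BL/10 replicate 1, at 5853 CPM. BL/10 replicates 2 and 3 had 3305 and 3593 CPM, and NOD.B10 had 4397 to 5691 CPM. All 12 B cell genes had positive log2 fold changes (median 0.24), and 0 passed the threshold. In whole spleen, a difference in the number of cells of a type and a difference in RNA per cell cannot be told apart.

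**Figure D1:**
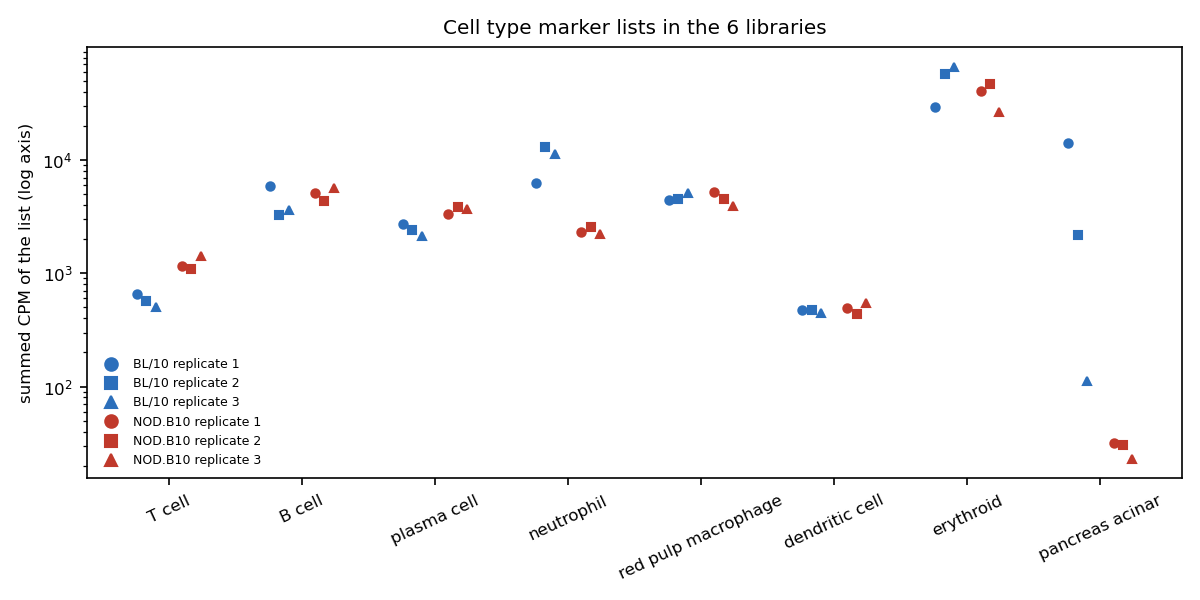
Summed CPM (log axis) of 8 lists of cell type markers in each of the 6 libraries, with BL/10 in blue and NOD.B10 in red and a symbol for each replicate. The T cell sums of NOD.B10 lie above those of BL/10, the neutrophil sums lie below them, and the pancreas sum reaches 14148 CPM in BL/10 replicate 1.

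Of the 10 genes, Irak1bp1 and Peli1 were higher in NOD.B10 spleens, and the other 8 did not pass the threshold of an adjusted p of 0.05. Over all tested genes, 17.3% passed in either direction and 9.11% were higher in NOD.B10, so 2 of 10 is close to the background. Libraries of the strains did not overlap for 4 of the 10 genes (Irak1bp1, Peli1, Traf5 and Traf6), all with NOD.B10 above, where 38.0% of all tested genes did not overlap. The median log2 fold change was 0.22 over the 10 genes and 0.00 over all tested genes. A log2 fold change within 0.25 of 0 was found for 7 of the 10 genes and for 51.5% of all tested genes. Both calls were also made by DESeq2, the package used in the study, which called 21.7% of the tested genes, and in each of the 6 fits that left out 1 library.

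**Figure D2:**
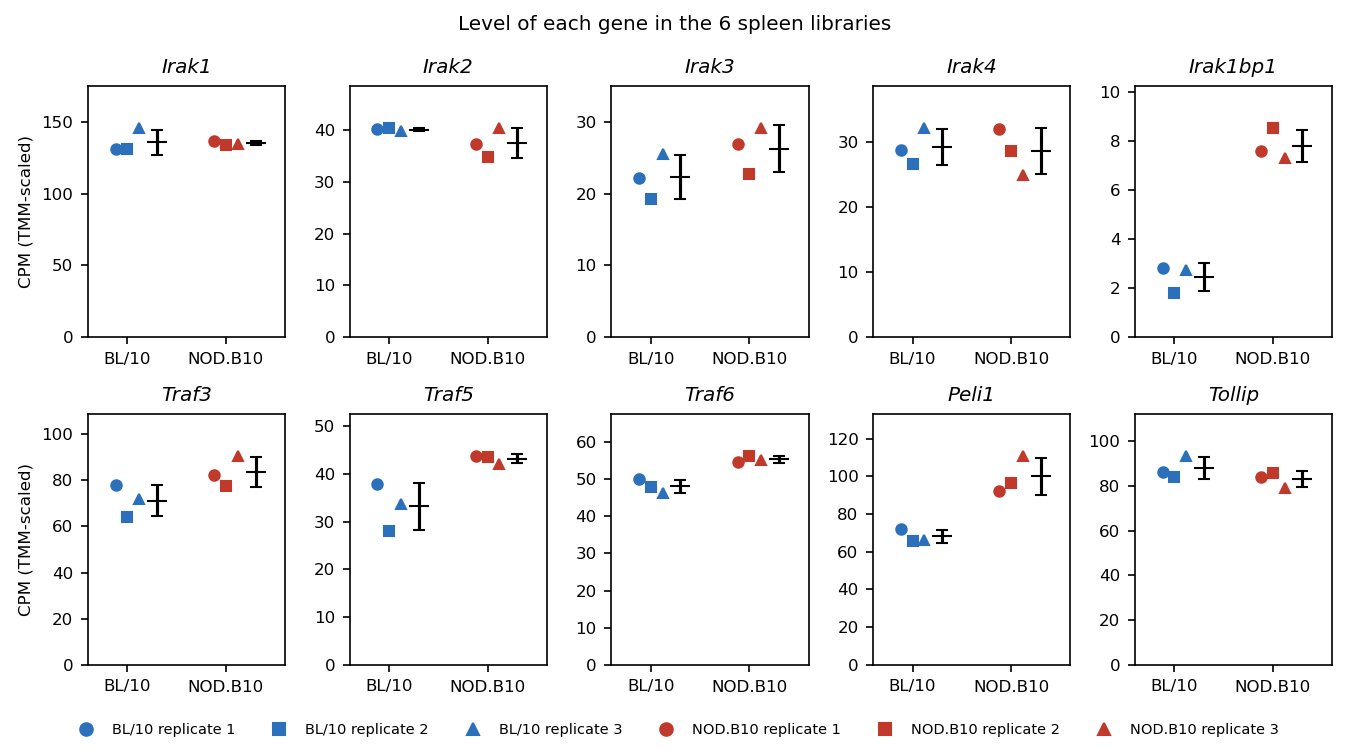
Level of each of the 10 genes (CPM, TMM-scaled, axes from 0) in the 3 BL/10 libraries (blue) and the 3 NOD.B10 libraries (red), with the mean and SD in black. The strains are separate for Irak1bp1, Peli1, Traf5 and Traf6 and overlap for the other genes.

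Irak1bp1 (ENSMUSG00000032251) encodes a protein that binds IRAK1 and takes part in NF-kB signaling downstream of it. It lies on the forward strand of chromosome 9, from 82829540 to 82847687 of GRCm38, with 4 exonic blocks that share no base with another gene of the table. It was counted 127, 139 and 130 times in NOD.B10 replicates 1, 2 and 3 and 52, 27 and 48 times in the BL/10 replicates. After scaling, these were 7.60, 8.54 and 7.30 CPM in NOD.B10 against 2.82, 1.81 and 2.73 CPM in BL/10. Every NOD.B10 library was thus above every BL/10 library, and BL/10 replicate 2 was the lowest of the 6. The means of 7.81 ± 0.644 and 2.45 ± 0.559 CPM (SD, n = 3 each) gave a log2 fold change of 1.66 (SE, the standard error, 0.20, adjusted p = 0.00173 in edgeR). This corresponds to a 3.15-fold higher level, with a 95% interval from 2.29 to 4.35. It was the only one of the 10 genes with a difference of over 2-fold. Its adjusted p stayed under 0.05 in all 15 alternative analyses, with log2 fold changes from 1.46 to 1.76.

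No tested gene within 500 kb of Irak1bp1 rose with it. Phip, a bromodomain protein gene that lies 18.5 kb downstream, had 152 ± 5.95 CPM in NOD.B10 and 148 ± 11.8 CPM in BL/10 (SD, n = 3 each), with a log2 fold change of 0.04 (adjusted p = 0.817 in edgeR). Hmgn3, a nucleosome-binding protein gene at a distance of 262 kb, had a log2 fold change of -0.11 (adjusted p = 0.685 in edgeR). Gm2065, a predicted gene at 266 kb, was lower in NOD.B10, at 0.394 ± 0.0355 against 1.32 ± 0.0208 CPM (SD, n = 3 each, log2 fold change -1.72, adjusted p = 0.00354 in edgeR). These were the 3 neighbors with enough counts to be tested. The genes whose pattern over the 6 libraries was most like that of Irak1bp1 were Ankrd33b, Cygb and Nme9. Their root mean square differences of centred log2 CPM from it were 0.117, 0.128 and 0.136. Their log2 fold changes were 1.51, 1.68 and 1.77.

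Peli1 (ENSMUSG00000020134) encodes the ubiquitin ligase Pellino 1, which modifies IRAK1 in TLR and IL-1 receptor signaling and also restrains the activation of T cells. It lies on the forward strand of chromosome 11, from 21091291 to 21150323, and shares no exonic base with another gene. Its levels were 92.3, 96.7 and 111 CPM in NOD.B10 replicates 1, 2 and 3 and 72.3, 65.9 and 66.4 CPM in the BL/10 replicates. The lowest NOD.B10 library lay above the highest BL/10 library, and NOD.B10 replicate 3 was the highest of all. The means were 100 ± 9.70 and 68.2 ± 3.55 CPM (SD, n = 3 each), a 1.47-fold higher level with a 95% interval from 1.25 to 1.71. The log2 fold change was 0.55 (SE 0.10, adjusted p = 0.00852 in edgeR), and it stayed between 0.47 and 0.61 with each library left out. Without the BL/10 libraries labelled 36 weeks, which leaves 1 BL/10 library, it was 0.47 with an adjusted p of 0.121 in edgeR. T cell markers were also higher in NOD.B10, and their part in the Peli1 difference was not tested.

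None of the 7 tested genes within 500 kb of Peli1 passed the threshold in edgeR. The nearest, Vps54, a vesicle tethering gene 89.0 kb away, had 81.8 ± 5.17 CPM in NOD.B10 and 72.2 ± 3.34 CPM in BL/10 (SD, n = 3 each, log2 fold change 0.18, adjusted p = 0.178 in edgeR). The others, Sertad2, Aftph, Lgalsl, Ugp2, Mdh1 and Wdpcp, had log2 fold changes from -0.23 to 0.21. The patterns most like that of Peli1 over the 6 libraries were those of Nlrc3, Ccdc66 and Krba1, with root mean square differences of 0.046, 0.050 and 0.050 in centred log2 CPM. Nlrc3, a gene of the NOD-like receptor family, had a log2 fold change of 0.52.

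The stretches of DNA shown next come from the RefSeq promoter windows of both genes that rose (GRCm38.p6, 250 bases before to 50 after the start), because NF-kB is the factor at the end of this cascade. Capitals mark a match to a loose NF-kB motif, GGGNNNNNCC, searched on both strands.
Irak1bp1, chr9:82829610-82829639, match on the forward strand starting 186 bases before the RefSeq start and inside the Ensembl gene: ttgcacttgcGGGTAAGACCaccggagtct
Peli1, chr11:21091247-21091276, match on the reverse strand, its leftmost base 67 bases before the RefSeq start: ctcgcgatgtGGCCCTGCCCcttaccctta
The motif was present in 11 of the 12 windows of the 10 genes and in 50.8% of 32851 windows of all genes. All 10 genes had at least 1 window with it, so the match did not separate the genes that rose from those that did not pass. A match of letters is not a measured binding site.

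None of the genes Irak1 to Irak4 passed the threshold in edgeR or in DESeq2, and their unadjusted p in edgeR was at least 0.129. Irak1 (ENSMUSG00000031392, chromosome X from 74013914 to 74023918) encodes the kinase that links the receptor complex to TRAF6. Its levels were 137, 134 and 135 CPM in NOD.B10 and 131, 131 and 146 CPM in BL/10, so that the NOD.B10 values lay within the BL/10 range. The log2 fold change was -0.01 (SE 0.09, adjusted p = 0.946 in edgeR), with a 95% interval of the fold from 0.86 to 1.14. Irak1 shares 2.99% of its exonic bases with the microRNA genes Mir5132 and Mir718. Its direction changed with the scaling, from -0.01 with TMM to 0.02 with upper-quartile normalization.

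Irak4 (ENSMUSG00000059883, chromosome 15 from 94543643 to 94581815), the first kinase recruited by MYD88, was measured at 32.0, 28.6 and 24.9 CPM in NOD.B10 and 28.7, 26.6 and 32.1 CPM in BL/10. The ranges of the strains overlapped over most of their width, with a log2 fold change of -0.03 (SE 0.12, adjusted p = 0.881 in edgeR) and an interval of the fold from 0.80 to 1.19. Of its exonic bases, 7.87% are shared with Twf1 on the opposite strand, and reads there were not counted for either gene.

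Irak2 (ENSMUSG00000060477, chromosome 6 from 113638467 to 113695026) encodes a relative of IRAK1 that sustains signaling. Its levels were 37.3, 34.8 and 40.5 CPM in NOD.B10 and 40.3, 40.4 and 39.8 CPM in BL/10. NOD.B10 replicates 1 and 2 were below BL/10 and replicate 3 was above, and the log2 fold change was -0.10 (SE 0.09, adjusted p = 0.468 in edgeR). The interval of its fold was 0.81 to 1.08, and 4.44% of its exonic bases are shared with Gm43963.

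Irak3 (ENSMUSG00000020227, chromosome 10 from 120141648 to 120202130) encodes IRAK-M, a member without kinase activity that is found mainly in monocytes and macrophages and dampens TLR signaling. It had 27.0, 22.7 and 29.2 CPM in NOD.B10 and 22.2, 19.3 and 25.5 CPM in BL/10. The strains overlapped, and the log2 fold change of 0.24 did not pass (SE 0.14, adjusted p = 0.268 in edgeR), with a fold between 0.94 and 1.47. Irak3 shares 5.22% of its exonic bases with Tmbim4. Of the red pulp macrophage markers, 2 of 12 were higher and 2 lower in NOD.B10, and 11 of 12 neutrophil markers were lower. Their part in the Irak3 values was not tested.

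The make-up of the IRAK family within a library does not depend on how libraries are scaled. Per kilobase of exon, Irak1 accounted for 56.6%, 58.9% and 56.4% of the summed level of Irak1 to Irak4 in NOD.B10 and for 57%, 58.5% and 58.2% in BL/10. Irak2 made up 17 ± 0.940% and 18.3 ± 1.27%, Irak3 14.3 ± 1.42% and 12.1 ± 0.976%, and Irak4 11.4 ± 1.40% and 11.6 ± 0.434% (SD, n = 3) in NOD.B10 and BL/10. The libraries of the strains overlapped for all 4 shares.

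The 3 TRAF genes all had higher means in NOD.B10 spleens, but none passed the threshold after adjustment in edgeR, while 2 (Traf5 and Traf6) had an unadjusted p under 0.05. Over all tested genes, 34.2% had an unadjusted p under 0.05. DESeq2 called none of the 3 genes and 21.7% of all tested genes, and limma-voom with quality weights called Traf5. Traf5 (ENSMUSG00000026637, chromosome 1 from 191997205 to 192092559) encodes an adaptor of CD27, CD40 and OX40. Its levels of 43.8, 43.5 and 42.1 CPM in NOD.B10 were close together and above those of BL/10, at 37.9, 28.1 and 33.6 CPM. The log2 fold change was 0.38 (SE 0.12, unadjusted p = 0.0123, adjusted p = 0.0622 in edgeR), and the interval of the fold was 1.08 to 1.57. BL/10 replicate 1 had the highest Traf5 level of the BL/10 libraries and was the only one labelled 26 weeks. A fit without it therefore cannot tell age and strain apart. In that fit, which called 26.3% of all genes tested in it, the log2 fold change was 0.47 (adjusted p = 0.0210 in edgeR). It was 0.27 without BL/10 replicate 2 (adjusted p = 0.133 in edgeR) and 0.19 without the BL/10 libraries labelled 36 weeks (adjusted p = 0.413 in edgeR). Over the 15 alternatives its adjusted p ran from 0.0210 to 0.413, and 2 of them passed. Traf5 shares 5.91% of its exonic bases with Mir3473c and Gm26879.

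Traf6 (ENSMUSG00000027164, chromosome 2 from 101678429 to 101701669) encodes the ubiquitin ligase that IRAK complexes engage. It had 54.5, 56.3 and 55.1 CPM in NOD.B10 and 49.9, 47.9 and 46.2 CPM in BL/10. The strains were separate but close, with a 1.15-fold difference (interval 1.02 to 1.30) and a log2 fold change of 0.20 (SE 0.08, unadjusted p = 0.0291, adjusted p = 0.104 in edgeR). No alternative brought its adjusted p under 0.05.

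Traf3 (ENSMUSG00000021277, chromosome 12 from 111166370 to 111267153), which restrains the alternative NF-kB pathway in B cells and serves type I interferon induction, had 82.2, 77.6 and 90.6 CPM in NOD.B10 and 77.8, 64.0 and 71.7 CPM in BL/10. NOD.B10 replicate 2 fell just below BL/10 replicate 1, so that the strains overlapped. The log2 fold change was 0.23 (SE 0.10, adjusted p = 0.159 in edgeR), with a fold between 0.99 and 1.38. Within the 3 TRAF genes, the share of each per kilobase overlapped between strains, with Traf5 at 34.0 ± 1.45% in NOD.B10 and 31.4 ± 1.84% in BL/10 (SD, n = 3 each).

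Tollip (ENSMUSG00000025139, chromosome 7 from 141874813 to 141918507) encodes an adaptor that binds IRAK1 and limits its activation. Its levels were 84, 86.0 and 79.2 CPM in NOD.B10 and 86.3, 84.2 and 93.6 CPM in BL/10, and the ranges overlapped. The log2 fold change of -0.08 (SE 0.08, adjusted p = 0.510 in edgeR) had a fold interval of 0.83 to 1.08, and it was negative in all 15 alternatives.

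**Figure D3:**
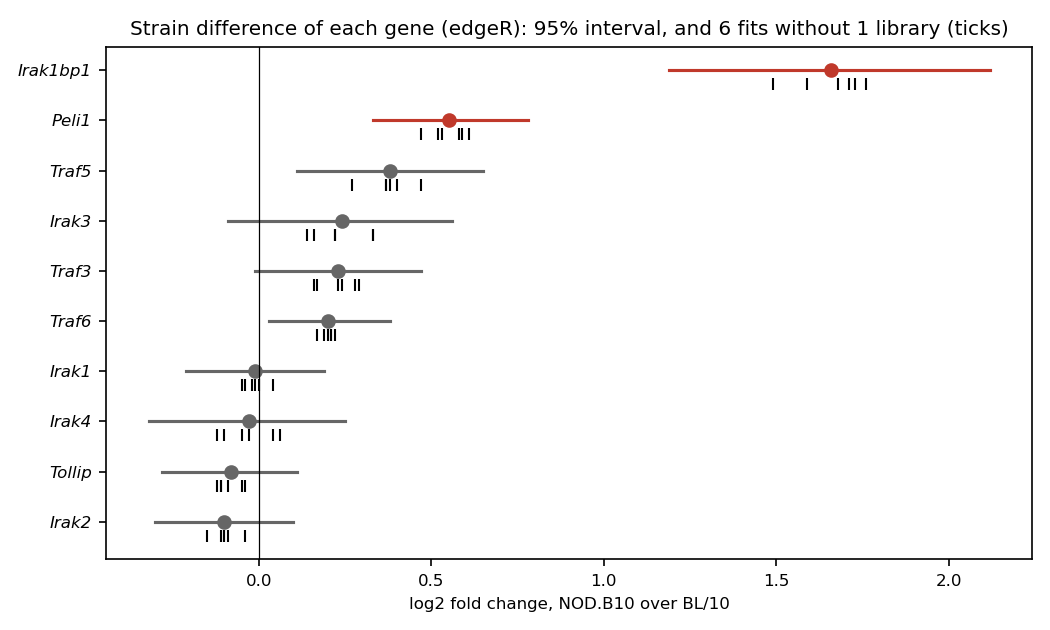
Log2 fold change of NOD.B10 over BL/10 for each gene in edgeR (point) with its 95% interval (line), in red where the adjusted p was under 0.05, and the 6 values with 1 library left out (ticks). Irak1bp1 (1.66) and Peli1 (0.55) lie above 0 with all their ticks, as do Irak3, Traf3, Traf5 and Traf6, which did not pass. The ticks of Irak2 and Tollip lie below 0, and those of Irak1 and Irak4 lie on both sides of 0.

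Levels of different genes were compared as CPM per kilobase of exon. Irak1 was the highest of the 10 genes in both strains, at 28.6 ± 0.340 in NOD.B10 and 28.8 ± 1.92 in BL/10 (SD, n = 3 each), and Tollip was next, at 19.2 ± 0.809 and 20.3 ± 1.14. In NOD.B10 the order continued with Peli1 (15.3), Traf3 (11.4), Traf5 (9.45), Irak2 (8.51), Irak3 (7.16), Traf6 (7.01), Irak4 (5.68) and Irak1bp1 (3.62). In that strain, the libraries of Irak2 overlapped those of Irak3, and those of Irak3 overlapped those of Traf6. In BL/10 the order after Tollip was Peli1 (10.4), Traf3 (9.68), Irak2 (9.10), Traf5 (7.27), Traf6 (6.09), Irak3 (6.07), Irak4 (5.80) and Irak1bp1 (1.14). There, the libraries overlapped between Peli1 and Traf3, Traf3 and Irak2, Traf5 and Traf6, Traf6 and Irak3, and Irak3 and Irak4, so their order does not exceed the spread between libraries. Peli1 was separate from Traf3 in NOD.B10 and not in BL/10, and Irak1bp1 was the lowest gene in every library of both strains.

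**Figure D4:**
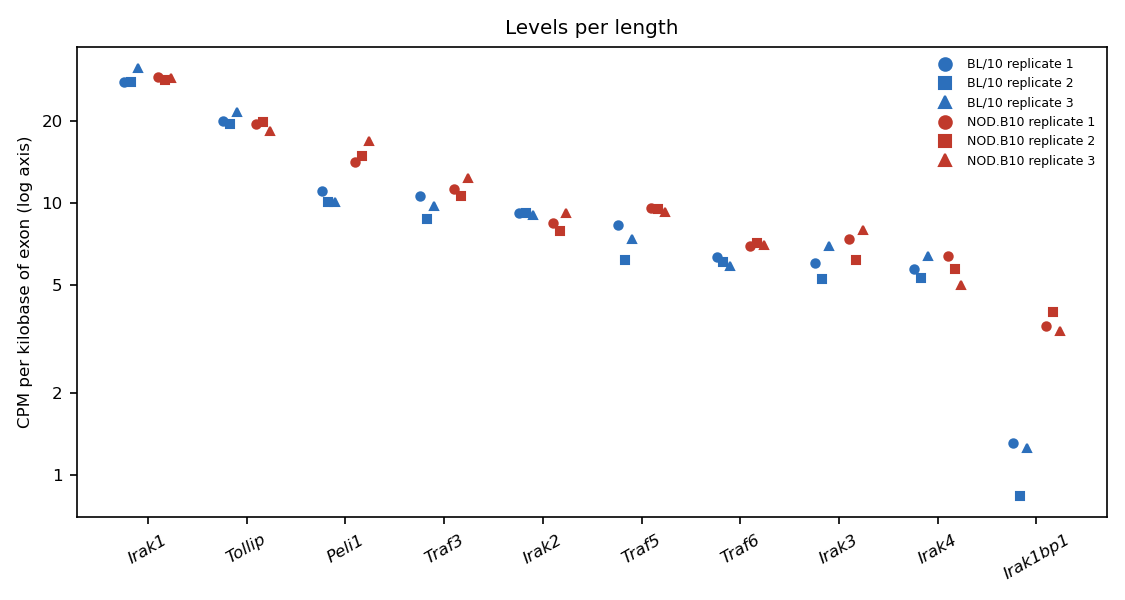
Level of each gene as CPM per kilobase of exon (log axis) in the 3 BL/10 libraries (blue) and the 3 NOD.B10 libraries (red), ordered by the BL/10 mean. Irak1 is the highest and Irak1bp1 the lowest gene in both strains.

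The rest of the pathway was described with lists of other genes, ordered from the membrane inward. Of 22 genes for TLRs, IL-1 family receptors and their adaptors, 5 were higher (Tlr6, Tlr8, Tlr12, Tlr13 and Sarm1) and 1 was lower (Il1rl1) in NOD.B10, where 17.3% of all tested genes passed in either direction and 9.11% were higher. The list had a median of 0.21 in log2 fold change. Tlr6, Tlr8, Tlr12 and Tlr13 had log2 fold changes of 1.45, 0.44, 1.36 and 0.67 (adjusted p = 0.000422, 0.0349, 0.00147 and 0.00890 in edgeR). Il1rl1, which encodes the receptor of IL-33, had 18.7 ± 5.70 CPM in NOD.B10 and 39.1 ± 13.7 CPM in BL/10 (SD, n = 3 each, log2 fold change -1.06, adjusted p = 0.0459 in edgeR), although its libraries overlapped. Sarm1, a TIR-domain adaptor gene, was low in both strains, with counts of 27, 19 and 25 in NOD.B10 libraries and of 13, 10 and 11 in BL/10 libraries. Its log2 fold change was 1.06 (adjusted p = 0.0251 in edgeR and 0.0642 in DESeq2). DESeq2, which called 21.7% of all tested genes, called 8 genes of the list. These were without Sarm1 and with Tlr1, Il1rap and Il18rap added (adjusted p = 0.0387, 0.0457 and 0.0422 in DESeq2). In edgeR, Tlr1 and Il1rap had log2 fold changes of 0.63 and 0.50, while Il18rap was lower in NOD.B10, at -0.49. Myd88, the adaptor that recruits the IRAKs, had 64.1 ± 8.80 CPM in NOD.B10 and 54.6 ± 1.75 CPM in BL/10 and did not pass. The list held 3 calls instead of 6 without NOD.B10 replicate 3 or without BL/10 replicate 3. Over all genes, 1395 and 1744 passed in these fits, against 2656 with all libraries. Il1rl1, Sarm1 and Tlr8 each lost the call in 4 of the 6 fits without a library, while Tlr6, Tlr12 and Tlr13 passed in all 6.

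Of 13 other TRAF genes and TRAF partners, 0 passed in edgeR, where 17.3% of all tested genes passed. An unadjusted p under 0.05 in edgeR was found for 4 genes of the list and for 34.2% of all tested genes. DESeq2 called 0 of the list and 21.7% of all tested genes, and limma-voom called 2 of the list and 3344 genes over all. The median log2 fold change of the 13 genes was 0.24. Traf1, a TRAF gene without a ubiquitin ligase domain, had 88.1 ± 16.7 CPM in NOD.B10 and 65.4 ± 6.78 CPM in BL/10 (SD, n = 3 each, adjusted p = 0.0834 in edgeR). Map3k14, the kinase that TRAF3 holds in check, had 61.6 ± 6.50 and 47.6 ± 5.93 CPM (SD, n = 3 each, adjusted p = 0.0750 in edgeR). Without BL/10 replicate 1, 5 of the 13 genes passed (Traf1, Traf3ip2, Traf3ip3, Birc3 and Map3k14), where 26.3% of all genes passed. That library had the highest B cell marker sum of the BL/10 libraries (5853 CPM against 3305 and 3593 CPM) and most of the pancreas reads. It was also the only BL/10 library labelled 26 weeks, so without it age and strain cannot be told apart. The part of these features in the count was not tested. Without NOD.B10 replicate 2, Traf1 passed.

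Among 13 genes of the TAK1, IKK and TBK1 kinases and their partners, Ikbkb and Ikbke were higher in NOD.B10, a share near the 17.3% of all tested genes that passed, and the median log2 fold change was 0.01. DESeq2 called both and Map3k8 (adjusted p = 0.0468 in DESeq2), where it called 21.7% of all tested genes. Ikbkb, a catalytic subunit of the IKK complex, had 137 ± 15.7 CPM in NOD.B10 and 98.6 ± 7.01 CPM in BL/10 (SD, n = 3 each, log2 fold change 0.47, adjusted p = 0.0246 in edgeR). Ikbke, an IKK-related kinase that acts with TRAF3 and TBK1 in interferon induction, had 43.6 ± 8.80 and 27.1 ± 2.53 CPM (SD, n = 3 each, log2 fold change 0.69, adjusted p = 0.0208 in edgeR). Map3k7, which encodes TAK1, had a log2 fold change of 0.05 (adjusted p = 0.693 in edgeR). Neither Ikbkb nor Ikbke passed without BL/10 replicate 2 or without BL/10 replicate 3, where 1580 and 1744 genes passed over all. Ikbkb also did not pass without NOD.B10 replicate 1 or 3, where 1 of the 13 genes was left. Over all genes, 1269 and 1395 passed in the latter fits, against 2656 with all libraries.

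Of 16 other ubiquitin-related and feedback genes, Sigirr and Tnip2 were higher and Otub2 was lower in NOD.B10, a share near the 17.3% of all tested genes, and the list had a median of 0.11 in log2 fold change. Sigirr, a receptor that inhibits IL-1 and TLR signaling, had 23.6 ± 2.04 CPM in NOD.B10 and 16 ± 2.51 CPM in BL/10 (SD, n = 3 each, log2 fold change 0.56, adjusted p = 0.0302 in edgeR). Tnip2, an A20-binding protein gene, had a log2 fold change of 0.40 (adjusted p = 0.0457 in edgeR). Otub2, a deubiquitinase gene, had 20.4 ± 4.31 and 44.4 ± 14.8 CPM (SD, n = 3 each, log2 fold change -1.12, adjusted p = 0.0286 in edgeR). Of the relatives of Peli1, Peli2 had 6.87 ± 0.185 CPM in NOD.B10 and 6.96 ± 1.40 CPM in BL/10, and Peli3 had 1.29 ± 0.218 and 0.604 ± 0.265 CPM (SD, n = 3 each). Neither passed (adjusted p = 0.966 and 0.0641 in edgeR). No gene of the list passed without NOD.B10 replicate 1, NOD.B10 replicate 3 or BL/10 replicate 2, and Otub2 alone passed without NOD.B10 replicate 2. Over all genes, 1269, 1395, 1580 and 2012 passed in these fits, against 2656 with all libraries. Without BL/10 replicate 3, where 1744 genes passed over all, the calls of Sigirr, Tnip2 and Otub2 were lost and Peli3 passed.

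Of 13 TNF receptor genes whose products bind TRAFs, Cd27, Tnfrsf18 and Tnfrsf4 were higher in NOD.B10, where 9.11% of all tested genes were higher, while the median log2 fold change of the list was -0.08. DESeq2 called these 3 and Cd40 (adjusted p = 0.0285 in DESeq2), where it called 21.7% of all tested genes. Cd27, a costimulatory receptor of T and B cells, had 40.7 ± 8.68 CPM in NOD.B10 and 16.2 ± 2.13 CPM in BL/10 (SD, n = 3 each, log2 fold change 1.33, adjusted p = 0.00222 in edgeR). Tnfrsf18, which encodes GITR, had 21.8 ± 2.73 and 11.1 ± 1.86 CPM (SD, n = 3 each, log2 fold change 0.97, adjusted p = 0.00573 in edgeR). Tnfrsf4, which encodes OX40, had a log2 fold change of 0.55 (adjusted p = 0.0452 in edgeR). Cd27 and Tnfrsf18 passed in each of the 6 fits without a library, and Tnfrsf4 in 1 of them. Without BL/10 replicate 1, 6 genes of the list passed, with Cd40, Tnfrsf13b and Tnfrsf14 added, in the fit that called 26.3% of all genes. With all libraries, Cd40 and Tnfrsf13b had log2 fold changes of 0.57 and 0.28, while Tnfrsf14 was lower in NOD.B10, at -0.51. The higher B cell marker sum, the pancreas reads and the 26-week label of BL/10 replicate 1 stand beside this count of 6 too. Without that library, age and strain cannot be told apart, and the part of these features in the count was not tested. The products of Cd27, Tnfrsf18 and Tnfrsf4 are found on T cells, whose markers were also higher in NOD.B10, by a median log2 fold change of 1.25, and the part of the markers in these values was not tested.

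**Figure D5:**
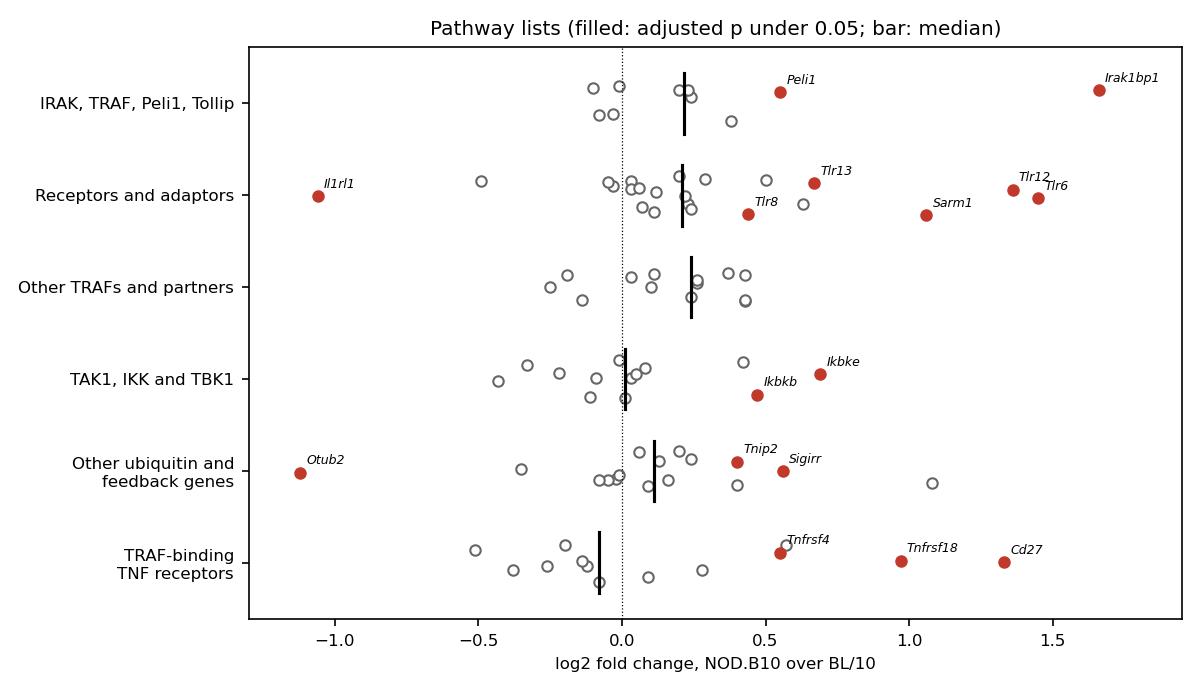
Log2 fold change of NOD.B10 over BL/10 for each gene of the 10-gene list and of the 5 other pathway lists, with filled points for an adjusted p under 0.05 in edgeR, open points for the rest and a bar at the median of the list. Irak1bp1 lies farthest to the right in its list, and most points of the other lists lie between -0.5 and 0.5.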

How the data were processed

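The authors deposited raw counts of reads per gene for 6 spleen libraries, without normalization. The paper names Tophat2 and the submitters' processing notes name HISAT2 version 2.0.5 as the aligner. Per the file headers, reads were counted on exons with featureCounts version 1.5.1 and Ensembl annotation 84 (GRCm38), with no option for strand, for reads that map to several places or for reads on several genes, so such reads were left out. The deposited gene length was used for levels per kilobase. Symbols were taken from GENCODE M21, and 47224 of 47729 identifiers matched.

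The versions used were 4.3.3 of R, 4.0.16 of edgeR, 3.58.1 of limma and 1.42.0 of DESeq2. Genes were kept by filterByExpr, scaled by TMM and compared by edgeR's quasi-likelihood test with Benjamini-Hochberg adjustment over 15330 genes. The standard error is the log2 fold change divided by the square root of F. A single gene cannot reach an exact permutation p below 0.1 with 3 libraries against 3.

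The 10 genes and the lists, which came from general knowledge, were chosen with earlier results of these data known. Genes named were all 10, the genes of each list past the threshold, Myd88, Ikbkb and Map3k7, tested genes within 500 kb of a called gene, and the 3 most alike in pattern. Traf1, Map3k14, Peli2, Peli3, the list genes that passed only without a library or in DESeq2, the family shares and the motif were chosen after the values were seen. Replicates are described by the submitters as biological. Pooled over all tested genes, each pair of replicates differed by at least 13.4 times what counting error gives (chi-square over its degrees of freedom). Abundant genes weigh most in this value, so it does not give the spread of a typical gene or of the 10 genes.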

Additional observations from a re-analysis of the deposited data

How the results depend on the processing

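With 3 libraries per strain, 1 library can move the counts. Over all genes, 2656 passed with all libraries, 1269 without NOD.B10 replicate 1, 1395 without NOD.B10 replicate 3, 4107 without BL/10 replicate 1, 1580 without BL/10 replicate 2, 1744 without BL/10 replicate 3 and 1001 without the 36-week libraries (fitted with 1 BL/10 library assumed to vary like NOD.B10). No scaling moved the median of all genes by more than 0.03 (log2). Each scaling assumes that most genes do not change, so this value cannot show whether levels shifted as a whole.

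Among the 10 genes, 2 passed under each scaling and filter and in DESeq2, 3 in limma-voom and 2 to 3 without a library. The counts over all genes were 2602 to 2677 under the scalings and 2067 and 3104 under the filters. They were 3319 in DESeq2 and 3344 in limma-voom. At an adjusted p under 0.01, 2 of the 10 genes passed, and the share of all genes at that cut was not computed. Without the 36-week libraries, which leaves 1 BL/10 library, Irak1bp1 and Peli1 had log2 fold changes of 1.46 and 0.47. Traf5 passed in limma-voom (0.42) and without BL/10 replicate 1 (0.47). The sign of Irak1 turned with upper-quartile normalization (0.02), without the 36-week libraries (0.05) and without BL/10 replicate 3 (range over the fits without a library -0.05 to 0.04). That of Irak4 turned in limma-voom (0.01) and without NOD.B10 replicate 3 or BL/10 replicate 3 (range -0.12 to 0.06). Neither passed in any fit.

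Without the 36-week libraries, 3 genes passed for receptors and adaptors, 0 for TAK1, IKK and TBK1, 0 for other ubiquitin and feedback genes and 1 for TNF receptors. Over the fits without 1 library, the ranges were 3 to 6 for receptors and adaptors, 0 to 5 for other TRAFs, 0 to 3 for TAK1, IKK and TBK1, 0 to 4 for ubiquitin and feedback genes and 2 to 6 for TNF receptors. For other TRAFs, 2 passed in limma-voom. The cause of these changes was not tested. Levels per length moved by less than 1 SD with RLE size factors.

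Replicate numbers did not pair the libraries. Deviations from the strain means correlated by 0.0316, 0.172 and -0.0837 for numbers 1, 2 and 3, and with the replicate number as a block 2889 genes passed, 2 of the 10 genes among them and 1 other TRAF gene instead of 0.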
